A study of Mus musculus with 6 samples.

Results

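The genes described here are 49 genes of the lysosome, chosen by symbol from the 54532 gene identifiers of the deposited count table: 12 proteases (most of them cathepsins), 17 glycosidases and sulfatases, 8 genes of lipid handling, 8 membrane proteins and transcription factors, and 4 parts of the proton pump. All 49 were found and all 49 passed the filter on low counts, as did 18530 genes in total. They were measured by RNA sequencing of polyadenylated RNA from primary astrocytes grown from the cerebral cortex of mouse pups. The 3 knockout libraries came from GFAP-Cre::NEOf/f pups, in which Cre recombinase under the Gfap promoter acts on a floxed Neo1 gene (genotype label Neo1 knockout). The 3 control libraries came from littermates, as the series' design text states, and their genotype label says only control, with library names that begin with Neoff. Neo1 codes for the cell surface receptor neogenin. Cre is made where the Gfap promoter is active, which need not be every cell of a culture. No label says which pup, litter or culture a library came from or gives an age, and the titles number the libraries as biological replicates. The p-values therefore measure the spread between these libraries, which may be partly technical.

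Lysosomes are acidic organelles in which proteins, sugar chains and lipids are broken down. Their soluble enzymes are made in the endoplasmic reticulum, mostly carried by mannose 6-phosphate receptors and switched on at the low pH that a proton-pumping ATPase maintains, while heavily glycosylated membrane proteins line the organelle. The transcription factors TFEB and TFE3 bind E-box motifs in the promoters of many lysosomal genes, and astrocytes use the pathway for autophagy and for the debris they take up.

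Total counts ran from 60819277 to 106081115 per library. Genotypes were separated on the first principal component (68.5% of variance). The second (12.4%) set knockout replicate 2 (at 23.4) apart from knockout replicates 1 and 3 (at -13 and -14.1). Counts over the whole Neo1 gene (ENSMUSG00000032340, chr9:58874687-59036441, minus strand) were 189, 189 and 198 CPM (counts per 1000000 library counts) in the control libraries and 101, 106 and 105 CPM in the knockout libraries. Neo1 fell by 0.89 on the log2 scale (SE 0.046; adjusted p = 5.8e-11, from edgeR's quasi-likelihood F-test with p-values adjusted by the Benjamini-Hochberg method). The labels do not name the floxed exon, so this count covers exons inside and outside it.

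The sequences that follow show the promoter motif by which these genes are best known as a group. RefSeq promoter windows on GRCm38.p6, each from 250 bases before to 50 bases after an annotated start, were matched for 43 of the 49 genes. Asah1, Atp6v1h, Galns, Ctsb, Npc1 and Ctsh had no entry. Some genes have several annotated starts, so the 43 genes had 50 windows. A gene was counted for a motif if any of its windows held it. The E-box CACGTG was present in the windows of 16 of the 43 genes (37.2%), against 8.09% of all 27025 genes in the table and 11.0% of the 12536 tested genes with an entry. The longer palindrome TCACGTGA, which contains the E-box, was present in 7 of 43 (16.3%), against 1.12% of all genes and 1.94% of tested genes. GTCACGTGAC, which contains both, was present in 1 of 43 (2.33%), in a Cln3 window, against 0.37% of all genes. Cln3, Ctsa and Lgmn have 2 windows each, and only the window further downstream holds a motif. Each motif reads the same on both strands. The 7 genes with the longer palindrome are shown as 30-base windows, 5′ to 3′ on the strand of the gene, with the longest motif found in capitals. Ctsa and Gla each have 2 copies. The first base of the motif lies 4 bases (Atp6v0d1) to 228 bases (Gla) before the start, except in the second Ctsa copy, which lies after it.

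Cln3 (chr7:126583340-126583369, minus strand): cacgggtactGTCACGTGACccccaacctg
Ctsd (chr7:142387908-142387937, minus strand): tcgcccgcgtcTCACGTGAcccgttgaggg
Ctsa, first copy (chr2:164833749-164833778, plus strand): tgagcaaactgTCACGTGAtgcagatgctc
Ctsa, second copy (chr2:164833766-164833795, plus strand): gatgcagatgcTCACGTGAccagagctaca
Gla, first copy (chrX:134601215-134601244, minus strand): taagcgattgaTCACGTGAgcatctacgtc
Gla, second copy (chrX:134601182-134601211, minus strand): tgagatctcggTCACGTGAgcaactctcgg
Mcoln1 (chr8:3500462-3500491, plus strand): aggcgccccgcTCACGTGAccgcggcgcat
Atp6v1a (chr16:44139373-44139402, minus strand): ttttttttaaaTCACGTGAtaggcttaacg
Atp6v0d1 (chr8:105566050-105566079, minus strand): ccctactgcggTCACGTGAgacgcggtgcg

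The promoters of Lamp1 and of the pair of genes with the largest rises, Ctsc and Ctsk, are given over the 250 bases before the start, where no exon is annotated. Lamp1, which codes for an abundant glycoprotein of the lysosomal membrane, has 4 E-boxes (in capitals), whose first bases lie 61, 45, 28 and 15 bases before the start. The Ctsc and Ctsk windows hold none of the 3 motifs, which says only that these letters are absent from these windows.

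Lamp1 (chr8:13158911-13159160, plus strand): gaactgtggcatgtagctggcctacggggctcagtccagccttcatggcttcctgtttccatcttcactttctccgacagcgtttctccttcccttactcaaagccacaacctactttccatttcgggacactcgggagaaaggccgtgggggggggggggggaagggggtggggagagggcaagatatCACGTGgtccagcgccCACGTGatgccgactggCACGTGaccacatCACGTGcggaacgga
Ctsc (chr7:88277835-88278084, plus strand): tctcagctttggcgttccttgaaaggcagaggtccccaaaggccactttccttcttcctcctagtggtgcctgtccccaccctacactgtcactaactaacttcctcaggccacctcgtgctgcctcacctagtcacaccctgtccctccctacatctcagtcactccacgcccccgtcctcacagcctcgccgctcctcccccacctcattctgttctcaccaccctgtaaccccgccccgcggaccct
Ctsk (chr3:95498960-95499209, plus strand): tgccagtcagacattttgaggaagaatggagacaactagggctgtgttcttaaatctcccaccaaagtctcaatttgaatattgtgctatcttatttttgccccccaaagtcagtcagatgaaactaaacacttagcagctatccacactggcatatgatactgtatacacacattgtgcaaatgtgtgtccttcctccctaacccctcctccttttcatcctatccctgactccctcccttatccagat

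The genes with a motif did not move one way between the genotypes. By the fit across all genes, E-boxes were present in 4 of the 12 genes that rose in the knockout libraries (Ctsl, Gla, Gaa and Atp6v1a), in 7 of the 15 that fell (Ctsd, Lgmn, Naglu, Sgsh, Arsa, Cln3 and Mcoln1) and in 5 of the 16 uncalled genes with a window (Ctsa, Ctsf, Glb1, Lamp1 and Atp6v0d1). Those are shares of 33.3%, 46.7% and 31.2%. Over all tested genes with a window the shares were 11.3% of genes called higher, 10.1% of genes called lower and 11.3% of the others. The longer palindrome was present in 2 genes that rose, 3 that fell and 2 that were not called. Npc2, Grn, Lipa, Lamp2, Tfeb and Tfe3, which are among the genes with larger changes, had windows without any of the 3 motifs.

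**Figure D1:**
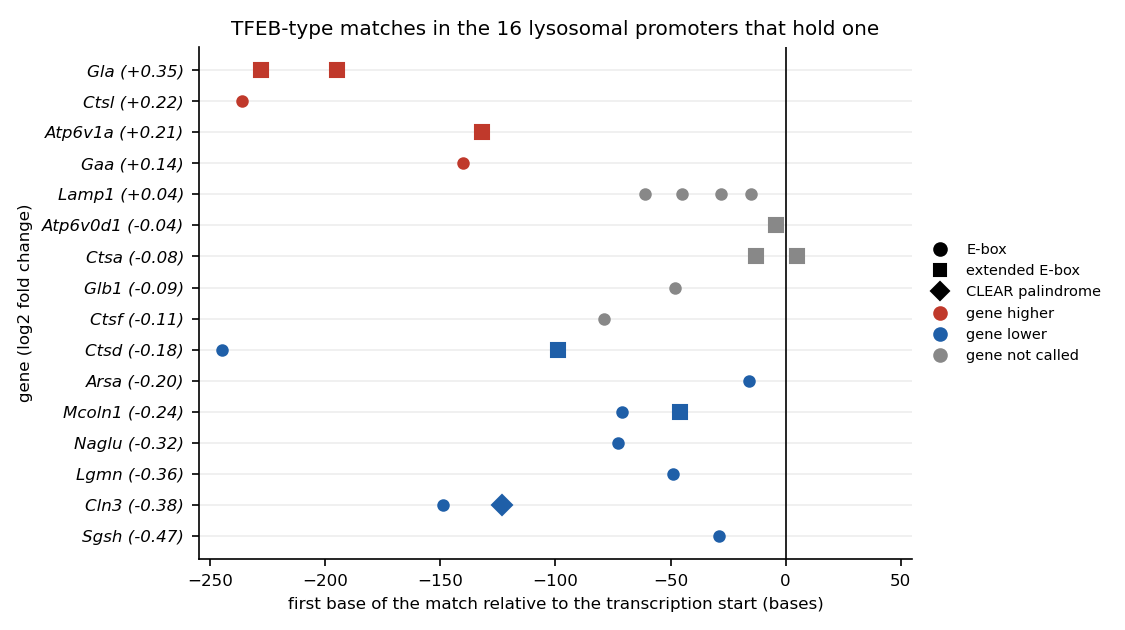
Positions of E-box motifs in the RefSeq promoter windows of the 16 genes that hold one, in bases relative to the annotated start (x axis), with a line per gene, its log2 fold change in parentheses and its call as colour; circles are CACGTG, squares TCACGTGA and the diamond GTCACGTGAC. The Lamp1 line carries 4 circles within the last 61 bases before the start, and red, blue and grey genes all occur.

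As a whole the 49 genes changed in both directions and mostly by small amounts. In the knockout libraries 12 genes were called higher (24.5%), where 19.6% of all tested genes were, and 15 were called lower (30.6%), where 18.7% were (edgeR's quasi-likelihood test, Benjamini-Hochberg adjusted p under 0.05). Read against all tested genes these shares are high, with 55.1% called in either direction against 38.3%, but these genes are well expressed. Among the 10598 genes with a mean level at or above that of the lowest of the 49, 26.6% were called higher and 26.1% lower. The share in either direction was 52.7%, and these values are close to the lysosomal shares. That set has a floor but no upper limit, so it is not matched in level to the 49. The median log2 fold change of the 49 was -0.02, and their median absolute change was 0.15, against 0.265 over all genes. All genes include those below the level of the lowest of the 49, so these medians of absolute change are not matched in level. Of the 27 genes called, 13 changed by less than 1.2-fold, 10 by 1.2 to 1.5-fold and 4 by more, namely Ctsc, Ctsk and Npc2 upward and Tfeb downward, while 12.9% of all tested genes were called with a change of at least 1.5-fold. The groups did not overlap in any of the 27. Of the 49 genes, 16 had every knockout library above every control library and 18 had the reverse. Both are larger shares than the 24.7% and 24.5% of all tested genes, which are not matched in level to the 49. In cultures measured in bulk, fewer cells of a type and less RNA per cell cannot be told apart.

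**Figure D2:**
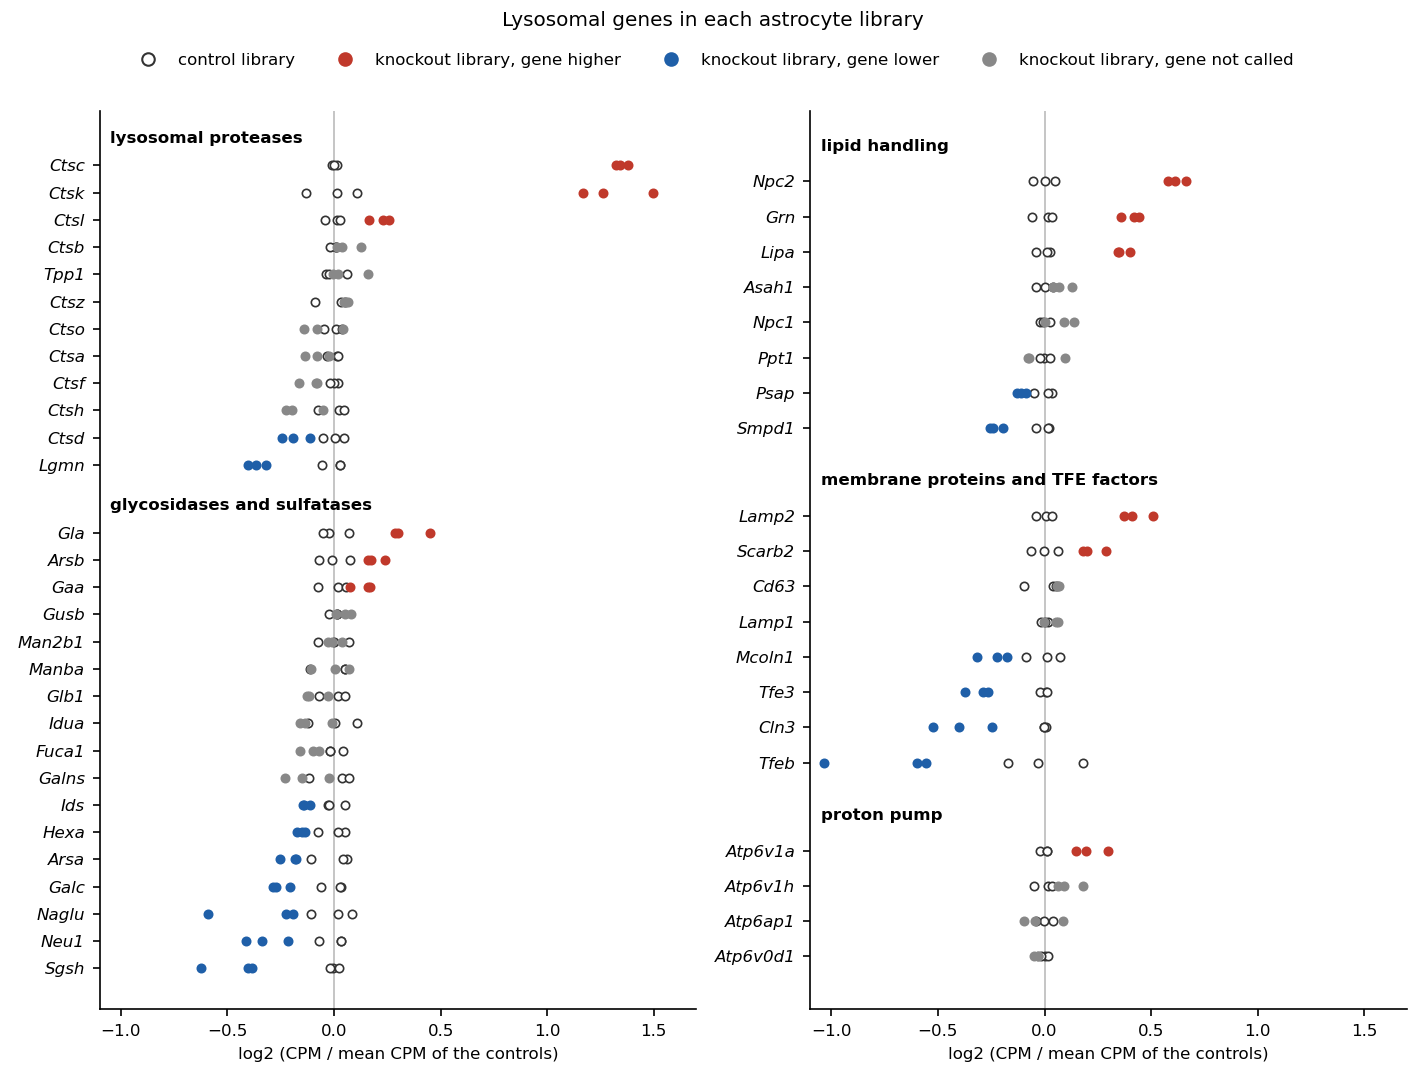
Level of each of the 49 genes in each of the 6 libraries, as log2 of its CPM over the mean of the 3 control libraries, with genes grouped by role. Ctsc and Ctsk lie furthest above the control level and Tfeb furthest below it, and most other genes stay close to it.

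The summed level of the 49 genes was 10526, 10613 and 10234 CPM in the control libraries and 10793, 11057 and 10674 CPM in the knockout libraries, 1.04-fold higher in the mean, with no overlap. Both the direction and the separation depend on the scaling: by total counts alone the sums were 10769, 10868 and 10452 CPM in control and 10582, 10754 and 10462 CPM in knockout libraries, 0.991-fold, with overlap. That sum rests on few genes. Psap, Ctsb and Ctsd made up 37.4% of it in control cultures, and with Lamp1 and Cd63 50.2%. Levels per kilobase divide by all annotated exons of a gene, so they compare genes only roughly. For Mcoln1 those exons have 7555 bases, while its longest transcript has 2889. On that scale control levels ran from 1.63 CPM per kb for Tfeb to 642 for Psap. Next came Ctsd at 422, Lamp1 at 286, Ctsb at 191.5 and Cd63 at 156. The 6 highest genes, the sixth being Ctsz, had the same order in the knockout libraries. Ctsc moved from place 28 to 19 and Ctsk from 40 to 27, while Tfeb, Sgsh and Idua were the 3 lowest in both groups. Spread between libraries of a group was small, with a median coefficient of variation of 3.35% in control and 3.88% in knockout libraries, and highest for Tfeb, whose lowest count was 330.

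**Figure D3:**
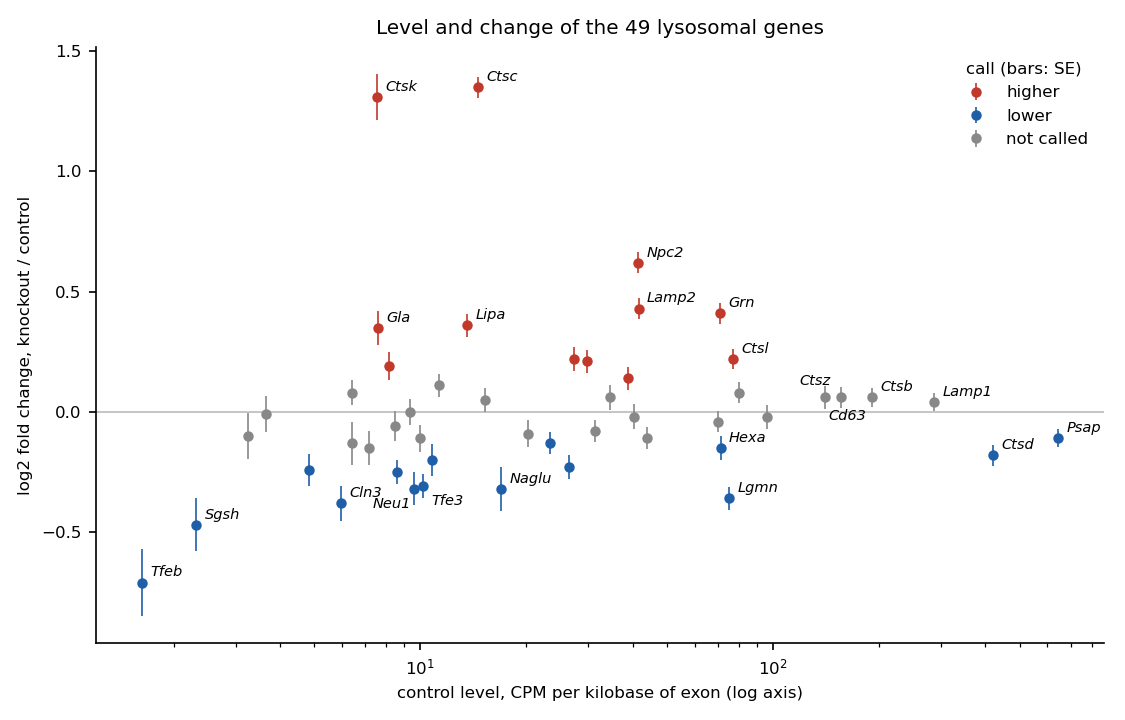
Mean control level of each gene in CPM per kilobase of exon (x axis, log scale) against its log2 fold change, knockout over control (y axis), with standard errors. The abundant genes Psap, Ctsd, Lamp1 and Ctsb lie near 0, and the changes of at least 1.5-fold belong to Ctsc, Ctsk, Npc2 and Tfeb.

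Among the 12 proteases 3 rose and 2 fell, and the other 7 were not called. Over all tested genes 19.6% rose and 18.7% fell. Among genes at or above the level of the lowest lysosomal gene described here, 26.6% rose and 26.1% fell. The falls, 2 of 12 proteases (16.7%), lay below both backgrounds and the rises between them, but each gene weighs much in so small a group. Scaled by total counts, which raised the count of falls over all genes too, 5 proteases were called lower. The largest rise of the 49 was that of Ctsc (ENSMUSG00000030560, chr7:88278085-88310888, plus strand), which codes for cathepsin C, a dipeptidyl peptidase that activates serine proteases of immune cells. Ctsc was at 84.2, 85.8 and 84.8 CPM in the control libraries and at 215, 221 and 213 CPM in the knockout libraries. All knockout libraries lay far above all control libraries. The mean went from 84.9 ± 0.775 to 216 ± 4.10 CPM (SD, n = 3 each), a 2.54-fold rise (log2 fold change 1.35, SE 0.045, adjusted p = 1.6e-13, edgeR). Ctsk (ENSMUSG00000028111, chr3:95499256-95509362, plus strand), which codes for the collagen-degrading cathepsin K, was at 10.4, 12.3 and 11.6 CPM in control and 27.4, 32.2 and 25.7 CPM in knockout libraries. It too was separated without overlap, with knockout replicate 2 the highest, and rose 2.49-fold (log2 fold change 1.31, SE 0.095, adjusted p = 5.3e-09). Without knockout replicate 2 its log2 fold change was 1.22.

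The other called proteases are more abundant and moved less. Ctsl, for cathepsin L, a cysteine endopeptidase, was at 506, 511 and 487 CPM in control and 589, 599.8 and 562 CPM in knockout libraries. It rose 1.16-fold without overlap (log2 fold change 0.22, SE 0.041, adjusted p = 0.0004). Ctsl shares 2137 exon bases in total with Gm49230 on the same strand and Gm47123 on the opposite strand. Lgmn, for legumain, an asparaginyl endopeptidase that also processes cathepsins, was at 178, 178 and 168 CPM in control and 136, 140.0 and 132 CPM in knockout libraries. Every knockout library lay below every control library, and Lgmn fell by 0.36 on the log2 scale (SE 0.046, adjusted p = 6.9e-06). Ctsd, for the aspartic protease cathepsin D, was at 993, 1025 and 955 CPM in control and 869, 917 and 838 CPM in knockout libraries. Its fall was small, 0.882-fold (log2 fold change -0.18, SE 0.043, adjusted p = 0.003), again without overlap. Ctsd shares 808 exon bases with Gm49369 on the same strand, so reads there may be assigned to either or to none.

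The 7 uncalled proteases include the most abundant, Ctsb, for the cysteine protease cathepsin B, at 1159 CPM in control cultures and 1208 CPM with the knockout (adjusted p = 0.27), with groups that did not overlap. Ctsz (202 and 210.2 CPM) and Tpp1 (178 and 186 CPM), the latter coding for a tripeptidyl peptidase, also had log2 fold changes of 0.06. Ctsa, which codes for the protective protein of beta-galactosidase and neuraminidase (148 and 140.0 CPM), had -0.08. Ctso had -0.06, Ctsf -0.11 and Ctsh, an aminopeptidase, -0.15 (adjusted p = 0.095). Summed over the 12 proteases the level was 3578 ± 84.9 CPM in control and 3700.3 ± 135 CPM in knockout libraries, a ratio of 1.03 (0.989 when scaled by total counts), with groups that overlapped under either scaling. Ctsc and Ctsk, the genes with the largest rises, made up a small part of that sum beside Ctsb, Ctsd and Ctsl.

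The 17 glycosidases and sulfatases, which remove sugars and sulfate groups from glycolipids, glycoproteins and glycosaminoglycans, had 7 falls (41.2%), 3 rises (17.6%) and 7 genes that were not called. Over all tested genes 18.7% fell and 19.6% rose. Among the 10598 genes at or above the level of the lowest lysosomal gene described here, 26.1% fell and 26.6% rose. That set has a floor but no upper limit, so it is not matched in level to this group. The count of falls was 4 without control replicate 1 and 4 without control replicate 2, and the count of rises was 1 without control replicate 1 and 1 without knockout replicate 3. Their summed level was 1196, 1199 and 1161 CPM in control and 1140.0, 1114 and 1145 CPM in knockout libraries, 0.956-fold, without overlap, and 0.914-fold, also without overlap, when scaled by total counts. The group's median log2 fold change was -0.11. None of its 10 called genes changed by 1.5-fold.

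Enzymes of heparan sulfate breakdown were among the falls. Sgsh, for N-sulfoglucosamine sulfohydrolase, was at 10.2, 10.1 and 10.4 CPM in control and 7.74, 6.64 and 7.84 CPM in knockout libraries. The groups did not overlap and the fall was 0.723-fold (log2 fold change -0.47, SE 0.11, adjusted p = 0.0027). Sgsh shares 955 exon bases with Card14 on the opposite strand, and no source used here says whether counting used strand. Naglu, for alpha-N-acetylglucosaminidase of the same pathway, was at 45.6, 47.8 and 41.8 CPM in control and 38.5, 29.9 and 39.4 CPM in knockout libraries. Knockout replicate 2 was the lowest library by a wide margin, and the fall of 0.32 on the log2 scale (SE 0.091, adjusted p = 0.011) was -0.21 without it (adjusted p = 0.017). Idua and Gusb, which act on the same chains, were not called, at 13.6 and 12.7 CPM and at 69.7 and 72.0 CPM.

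Galc, Neu1 and Hexa fell as well, while the galactosidase gene Gla rose and Glb1 was not called, as given below. Galc, for the beta-galactosidase that cleaves the myelin lipid galactosylceramide, was at 131, 123 and 130.0 CPM in control and 106, 111 and 105 CPM in knockout libraries. It fell without overlap by 0.25 on the log2 scale (SE 0.048, adjusted p = 0.00039). Neu1, for the sialidase neuraminidase 1, was at 36.7, 36.7 and 34.2 CPM in control and 27.0, 30.9 and 28.4 CPM in knockout libraries. That is a 0.801-fold change without overlap (log2 fold change -0.32, SE 0.069, adjusted p = 0.0013). Hexa, for the alpha subunit of hexosaminidase, which degrades ganglioside GM2, was at 147, 144 and 135 CPM in control and 126, 129 and 128 CPM in knockout libraries. The change was small (log2 fold change -0.15, SE 0.048, adjusted p = 0.016), and the call was lost without control replicate 1 (adjusted p = 0.09), control replicate 2 (0.06), knockout replicate 1 (0.065) or knockout replicate 3 (0.05).

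The 3 rises in this group were modest. Gla, for alpha-galactosidase A, the enzyme missing in Fabry disease, was at 26.0, 24.4 and 23.9 CPM in control and 33.9, 30.5 and 30.2 CPM in knockout libraries. It rose 1.27-fold without overlap (log2 fold change 0.35, SE 0.071, adjusted p = 0.00073). Arsb, a sulfatase of dermatan and chondroitin sulfate, was at 47.1, 49.003 and 52.0 CPM in control and 55.1, 55.7 and 58.3 CPM in knockout libraries. The gap between the groups was narrow (log2 fold change 0.19, SE 0.058, adjusted p = 0.015), and the call was lost without control replicate 1 (adjusted p = 0.098), control replicate 2 (0.066) or knockout replicate 3 (0.078). Arsb also overlaps antisense genes over 2411 exon bases. Gaa, for the acid alpha-glucosidase that degrades glycogen, went from 186 ± 8.72 to 204 ± 7.11 CPM (SD, n = 3; log2 fold change 0.14, adjusted p = 0.032). Its call was lost without control replicate 1 (adjusted p = 0.085), control replicate 3 (0.12), knockout replicate 1 (0.11) or knockout replicate 3 (0.13).

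Among the other sulfatases, Ids, which acts on iduronate residues, went from 119 ± 3.80 to 108 ± 1.45 CPM (SD, n = 3; log2 fold change -0.13, adjusted p = 0.031). Arsa, which acts on the myelin lipid sulfatide, went from 39.8 ± 2.53 to 34.6 ± 1.00 CPM (log2 fold change -0.20, adjusted p = 0.021), and it overlaps an antisense gene over 690 exon bases. Neither of these calls was robust to the loss of a library. Ids was not called without control replicate 1 (adjusted p = 0.053), control replicate 2 (0.052), control replicate 3 (0.069), knockout replicate 1 (0.095) or knockout replicate 3 (0.064), and Arsa was not called without control replicate 1 (0.096) or control replicate 2 (0.077). Galns, the sulfatase of keratan sulfate, was not called (17.0 and 15.5 CPM). The glycoprotein enzymes Man2b1 (75.3 CPM in both groups), Manba (25.4 and 25.3 CPM), Fuca1 (144 and 134 CPM, adjusted p = 0.076) and the beta-galactosidase Glb1 (60.6 and 57.0 CPM) were not called either.

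Of the 8 genes of lipid handling 3 rose and 2 fell, and the rises were the larger changes. The share of rises, 37.5%, compares with 19.6% of all tested genes and 26.6% of genes at or above the lowest lysosomal level. The share of falls lay between the 18.7% and 26.1% of those sets, and the group is small. Npc2 (ENSMUSG00000021242, chr12:84754562-84773152, minus strand), for the soluble protein that hands cholesterol to NPC1 in the lysosome, was at 226, 234 and 218 CPM in control and 357, 345 and 337 CPM in knockout libraries. The groups were far apart and the rise was 1.54-fold (log2 fold change 0.62, SE 0.044, adjusted p = 4.2e-09). Its membrane partner Npc1 was not called, at 72.4 and 76.5 CPM (log2 fold change 0.08, adjusted p = 0.27). Lipa, for the acid lipase that frees cholesterol from its esters upstream of both, was at 89.6, 93.7 and 92.9 CPM in control and 121, 117 and 117 CPM in knockout libraries. It rose 1.29-fold without overlap (log2 fold change 0.36, SE 0.047, adjusted p = 7.7e-06). Grn, for progranulin, a secreted growth factor that is cut into granulins in lysosomes, was at 249.7, 253 and 237 CPM in control and 335, 317 and 329.5 CPM in knockout libraries. Its rise was 1.33-fold, also without overlap (log2 fold change 0.41, SE 0.044, adjusted p = 8.3e-07).

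The 2 falls concern sphingolipid breakdown. Smpd1, for acid sphingomyelinase, was at 89.7, 89.5 and 86.1 CPM in control and 74.1, 77.1 and 74.8 CPM in knockout libraries. It fell 0.852-fold without overlap (log2 fold change -0.23, SE 0.049, adjusted p = 0.0012). Psap, for prosaposin, the precursor of the saposins that activate sphingolipid hydrolases and a binding partner of progranulin, was at 1803, 1783 and 1700.2 CPM in control and 1659, 1632 and 1610.1 CPM in knockout libraries. The groups were separate but close (log2 fold change -0.11, SE 0.038, adjusted p = 0.031). The Psap call was lost without control replicate 1 (adjusted p = 0.13), control replicate 2 (0.096), knockout replicate 1 (0.056) or knockout replicate 3 (0.11). Asah1, for acid ceramidase (271 and 286 CPM, log2 fold change 0.08), and the palmitoyl-protein thioesterase Ppt1 (148 and 147 CPM, -0.02) were not called. Summed over the 8 genes the level was 2906 ± 64.7 CPM in control and 3010.0 ± 38.3 CPM in knockout libraries. The groups did not overlap, but scaled by total counts they did, at a ratio of 0.99.

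The membrane proteins differed among themselves. Lamp2 (ENSMUSG00000016534, chrX:38401357-38456454, minus strand), for a membrane glycoprotein used in autophagy, was at 387, 399 and 406 CPM in control and 514, 566 and 528 CPM in knockout libraries. It rose 1.35-fold without overlap (log2 fold change 0.43, SE 0.044, adjusted p = 4.8e-07). Its relative Lamp1, the more abundant of the pair per kilobase, was not called, at 766 and 786 CPM (log2 fold change 0.04, adjusted p = 0.48), and neither was the tetraspanin gene Cd63, at 573 and 598 CPM (0.06, adjusted p = 0.3). Scarb2, for LIMP-2, the receptor that carries glucocerebrosidase to lysosomes, was at 164, 171 and 179 CPM in control and 196, 209 and 194 CPM in knockout libraries. It rose 1.17-fold without overlap (log2 fold change 0.22, SE 0.048, adjusted p = 0.0013).

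Cln3 and Mcoln1 fell. Cln3, for the membrane protein lost in juvenile Batten disease, was at 34.5, 34.8 and 34.5 CPM in control and 29.1, 24.1 and 26.2 CPM in knockout libraries. The control libraries were nearly equal and all knockout libraries lay below them (log2 fold change -0.38, SE 0.073, adjusted p = 0.00041). Cln3 shares 442 exon bases with Apobr on the opposite strand. Mcoln1, for the calcium channel TRPML1, was at 34.4, 38.4 and 36.8 CPM in control and 31.3, 29.3 and 32.4 CPM in knockout libraries. It fell by 0.24 on the log2 scale without overlap (SE 0.067, adjusted p = 0.0095), and the call was lost without control replicate 2 (adjusted p = 0.053). Of the Mcoln1 transcript 13.8% aligns to A230057D06Rik, so part of its reads may be shared.

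Both transcription factors of the pathway among the 49 genes fell. Tfeb (ENSMUSG00000023990, chr17:47737030-47792419, plus strand) was at 10.5, 9.05 and 8.21 CPM in control and 6.10, 4.51 and 6.29 CPM in knockout libraries. The lowest control library stayed above the highest knockout library, and the fall of 0.71 on the log2 scale (SE 0.14, adjusted p = 0.00069) was the largest of the 49. It was -0.57 without knockout replicate 2 (adjusted p = 0.0018). Tfe3 (ENSMUSG00000000134, chrX:7762560-7775202, plus strand), whose level per kilobase in control libraries was 10.2 CPM per kb against 1.63 for Tfeb, was at 95.1, 93.2 and 95.3 CPM in control and 78.7, 72.9 and 77.4 CPM in knockout libraries. It fell 0.807-fold without overlap (log2 fold change -0.31, SE 0.050, adjusted p = 9.3e-05). The related genes Mitf (7.48 and 7.56 CPM, adjusted p = 0.93) and Tfec (2.72 and 1.84 CPM, adjusted p = 0.068) were not called. These values are mRNA levels; the activity of TFEB and TFE3 depends on phosphorylation and entry into the nucleus, which were not measured.

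The 4 proton pump genes moved little. Atp6v1a, for the catalytic subunit of the pump's cytosolic part, was at 177, 181 and 181 CPM in control and 206, 221 and 199 CPM in knockout libraries. It rose 1.16-fold without overlap (log2 fold change 0.21, SE 0.047, adjusted p = 0.0015). Atp6v1h (110.0 and 119 CPM, log2 fold change 0.11, adjusted p = 0.082), Atp6ap1 (291 and 288 CPM, -0.02) and Atp6v0d1 (125 and 122 CPM, -0.04) were not called.

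Over the 22 uncalled genes log2 fold changes ran from -0.15 to 0.11, with 95% confidence bounds between -0.31 and 0.21. Of the 22, 10 had positive and 12 negative values, and in 15 the groups overlapped.

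**Figure D4:**
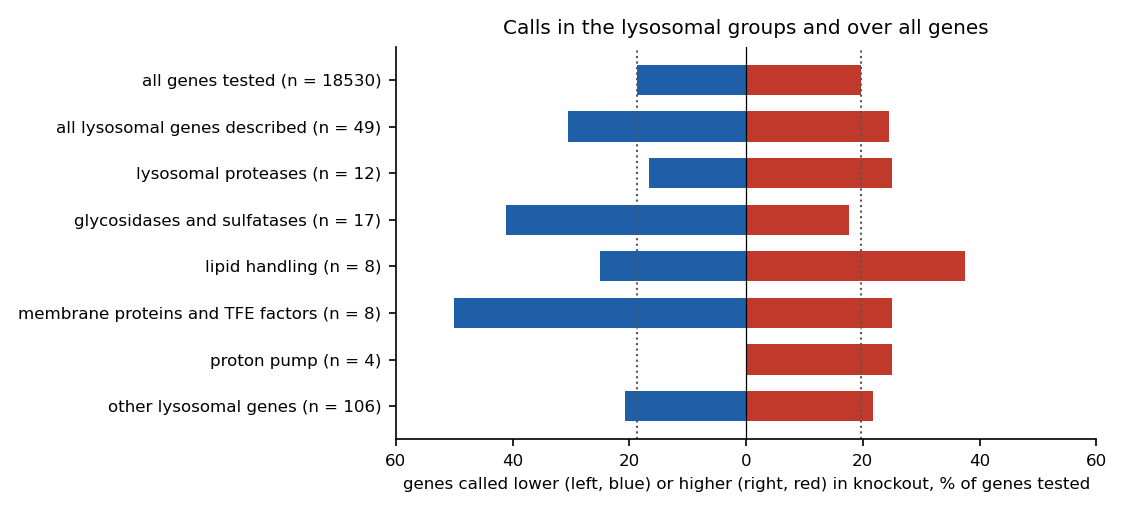
Share of genes called higher and lower in the knockout libraries for each role, beside the shares over all 18530 tested genes (19.6% and 18.7%). The 17 glycosidases and sulfatases had 17.6% called higher and 41.2% lower, and the 8 lipid handling genes 37.5% higher. Of the 8 membrane proteins and transcription factors, a small group, 4 were called lower (Cln3, Mcoln1, Tfeb and Tfe3) and 2 higher. Among genes at or above the lowest lysosomal level, 26.6% were called higher and 26.1% lower.

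A wider list, called other lysosomal genes here, held 112 genes linked to the lysosome, not all of them with products inside it. Of the 106 that could be tested, 23 were called higher (21.7%) and 22 lower (20.8%). Those shares are near the 19.6% and 18.7% of all tested genes. The groups of this list are small, and their counts can be read against the same shares. Further proteases and their cystatin inhibitors had 1 rise and 4 falls among 8 tested. Cst3, for cystatin C, a secreted inhibitor of cathepsins, went from 1129 ± 31.2 to 705 ± 51.4 CPM (SD, n = 3; log2 fold change -0.68, adjusted p = 4.9e-09). Ctss, for the microglial cathepsin S, went from 24.6 ± 1.41 to 15.3 ± 1.14 CPM (-0.68, adjusted p = 3.3e-06). Among sorting genes 5 of 11 rose and 2 fell. Igf2r, for a mannose 6-phosphate receptor, went from 150.3 ± 13.6 to 189.8 ± 0.905 CPM (0.34, adjusted p = 0.00011), Gnptab, for the enzyme that makes its ligand, had a log2 fold change of 0.30, and Sort1, for sortilin, one of -0.41 (adjusted p = 9.5e-06).

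Further proton pump genes were split, with 4 rises and 6 falls among 17 tested. The a3 and a1 isoforms of the large membrane subunit moved in opposite directions: Tcirg1 (a3) went from 75.5 ± 3.61 to 114 ± 7.18 CPM (SD, n = 3; log2 fold change 0.60, adjusted p = 1.8e-07) and Atp6v0a1 (a1) from 134 ± 3.13 to 102 ± 2.16 CPM (-0.39, adjusted p = 2.7e-06). Other membrane proteins and transporters had 7 rises and 3 falls among 23, led by Slc36a1, an amino acid exporter of the lysosome, at 0.64 (adjusted p = 1.9e-07), and Laptm5, a membrane protein of blood cells, at -0.94 (adjusted p = 1.4e-05). Other hydrolases had 3 rises and 5 falls among 24. Dnase2a was at -0.48 and Manea, whose enzyme is in the Golgi rather than the lysosome, at 0.53. Nutrient sensing and biogenesis genes had 3 rises and 2 falls among 23. Fnip1, a partner of folliculin, went from 42.3 ± 1.14 to 61.8 ± 3.38 CPM (0.55, adjusted p = 8.4e-07), and Rragd, a Rag GTPase gene, from 39.98 ± 1.27 to 29.8 ± 1.15 CPM (-0.42, adjusted p = 3.5e-05).

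Markers of cell types moved beside these changes. Of 18 astrocyte markers 13 fell and 2 rose, with a summed level of 4218 to 4254 CPM in control and 3590.2 to 3714 CPM in knockout libraries, and Gfap, the most abundant, went from 946 ± 20.8 to 431 ± 3.85 CPM. Of 19 tested microglia and macrophage markers 13 fell and 2 rose, with a sum of 158 to 164 CPM in control and 104 to 109 CPM in knockout libraries. The most abundant of them, Adgre1, went from 41.4 to 31.5 CPM. Cx3cr1 (0.850 and 0.164 CPM) and P2ry12 (0.277 and 0.265 CPM) were near 0, and Siglech was at 0 in all control libraries. Others lay higher, among them Fcer1g (19.9 and 13.6 CPM) and Csf1r (16.1 and 8.47 CPM), which fell, and Cd53 (13.7 and 17.6 CPM), which rose. Of 12 tested fibroblast and meningeal markers 8 rose and 1 fell, with a sum of 3416 to 3625 CPM in control and 5148 to 5809 CPM in knockout libraries, led by Col1a1 (1950 and 2976 CPM). Endothelial markers had 4 rises among 8 tested (97.9 to 103 CPM against 159 to 164 CPM). The most abundant were Flt1 (43.5 and 68.1 CPM) and Cdh5 (26.8 and 53.4 CPM), which rose, as did Kdr and Esam. Pecam1 (1.06 and 1.40 CPM), Tek (1.06 and 1.54 CPM), Vwf (2.19 and 1.81 CPM) and Emcn (0.119 and 0.195 CPM) were low and not called. Cldn5 was not tested. Ependymal and choroid plexus markers had 4 falls among 6, and the oligodendrocyte lineage 1 rise and 4 falls among 9. Neurons had 1 rise and 2 falls among 10, and pericytes and smooth muscle 3 of each among 8. Many lysosomal genes are used by all of these cells, Ctsk most by fibroblasts and osteoclasts and Ctsc and Grn strongly by macrophages. The part of these cell types in the changes of the 49 genes was not tested.

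**Figure D5:**
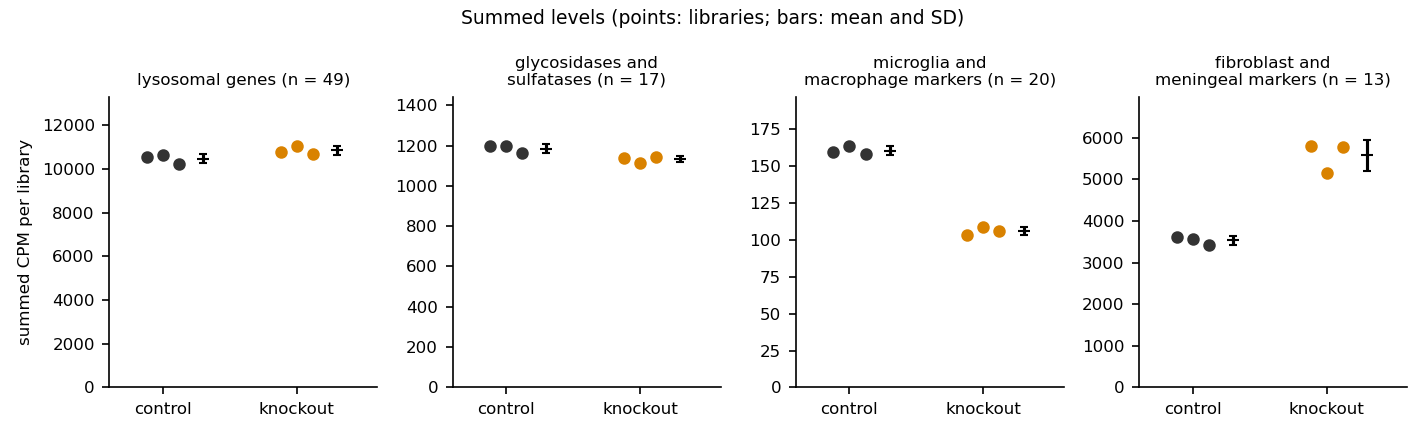
Summed CPM in each of the 6 libraries for the 49 lysosomal genes, the 17 glycosidases and sulfatases, 20 microglia and macrophage markers and 13 fibroblast and meningeal markers, with bars for the mean and SD of 3 libraries and axes from 0. The lysosomal sums differ little (1.04-fold and 0.956-fold on TMM-adjusted library sizes; the first is 0.991-fold by total counts), while the microglia sum is 0.661-fold and the fibroblast sum 1.58-fold the control level.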

How the data were processed

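Gene counts came from 6 libraries of cultured mouse cortical astrocytes, 3 per genotype, with RNA taken in Trizol and poly-T beads used for the libraries, per the labels' protocols. The authors deposited raw counts per gene, and the submitters' processing notes name HISAT2 2.2.1, featureCounts 2.0.6 and GRCm38 (mm10). Not given in the sources used here are the annotation release, the use of strand and the treatment of reads with several matches; 16 of the 49 genes overlap an antisense gene and 3 a gene on the same strand.

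Genotypes were compared with edgeR 4.0.16 in R 4.3.3 (TMM, filterByExpr with minimum count 10 and minimum total 15, robust glmQLFit, two-sided glmQLFTest), with p-values adjusted by Benjamini-Hochberg across the 18530 genes that passed the filter and called under 0.05. The genes tested held 99.96% of counts. CPM values use TMM-adjusted library sizes, and CPM per kilobase divides by the summed exons of the GENCODE M21 annotation of GRCm38, which also gave coordinates. No pair of libraries of a group was a duplicate (chi-square per gene 5.81 to 20.2). The fit was tested on simulated data.

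The members and lists were chosen with earlier results of these data known. Values in every library are given for called genes with an absolute log2 fold change of at least 0.3 and up to 3 further called genes per role with the smallest p; of each group of other lysosomal genes, up to 3 in each direction could be named, and of each marker list its most abundant gene. Tfec, Mitf, Cx3cr1, P2ry12, Siglech, Fcer1g, Csf1r and Cd53 were named outside this rule, after their values were seen. So were Cdh5, Kdr, Esam, Pecam1, Tek, Vwf, Emcn and Cldn5. Alternatives were DESeq2 1.42.0, limma-voom (limma 3.58.1), other scalings and filters, a replicate block, a non-robust fit and each library left out.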

Additional observations from a re-analysis of the deposited data

How the results depend on the processing

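Of the 27 called genes, 20 kept their call in all 15 alternatives: 3 scalings, 2 filters, DESeq2, limma-voom, a replicate block, a non-robust fit and each of 6 libraries left out. The other 7 (Hexa, Gaa, Ids, Arsa, Arsb, Psap and Mcoln1) lost it in at least 1, and no called gene changed direction. Scaling by total counts lowered values most, moving the median of all genes from -0.002 to -0.067 and the calls over all genes from 3627 higher and 3466 lower to 2921 and 4499. Under it Gaa (adjusted p = 0.27) and Arsb (0.098) lost their calls, Ctsa (-0.14), Ctsf (-0.17), Ctsh (-0.22), Glb1 (-0.15) and Fuca1 (-0.17) were called lower, 5 proteases were called lower, 1 glycosidase or sulfatase was called higher, and 35 other lysosomal genes fell. The median log2 fold change of the 49 genes was then -0.08 and that of the other lysosomal genes -0.091, and with upper-quartile scaling they were -0.031 and -0.042. Total-count scaling also turned the ratio of the summed levels from 1.04 to 0.991 for the 49 genes, from 1.03 to 0.989 for proteases, from 1.04 to 0.99 for lipid handling and from 1.04 to 0.999 for the proton pump. With upper-quartile scaling Gaa lost its call (adjusted p = 0.065) and Fuca1 gained 1 (-0.12). With a filter of 1 CPM the median of the other lysosomal genes was -0.014. Scaling by total counts leaves out the TMM factors, which were 1.021 to 1.024 in control and 0.9726 to 0.9804 in knockout libraries. Why these factors differed between the genotypes, and the cause of the other shifts, was not tested.

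With each library left out in turn, 10 to 12 of the 49 genes rose and 10 to 15 fell, with a median of -0.068 to -0.019. Glycosidases and sulfatases had 1 to 3 rises and 4 to 7 falls, lipid handling genes 1 to 2 falls, and the other lysosomal genes a median of -0.051 to -0.012. Without knockout replicate 1, Ctsh was called lower (-0.21). Without knockout replicate 2, which stood apart on the second component, the calls over all genes were 3496 higher and 3431 lower, the median of the 49 was -0.068 and no call among them changed.

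The labels give both genotypes replicate numbers 1 to 3. Deviations of same-numbered libraries were correlated at 0.0224, 0.00177 and 0.00264, so the numbers were not taken to pair them. The replicate block gave 3501 higher and 3383 lower calls over all genes and changed no call among the 49 genes. Counts of 330 or more behind each value leave the spread between 3 libraries, more than depth, as the limit on these comparisons.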
